A study of Mus musculus with 24 samples.

Results

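The genes described here mark the endothelial cells of the liver sinusoid and were measured in the livers of p16-3MR and wild-type (WT) mice. The 10 genes, Stab1, Stab2, Lyve1, Clec4g, Fcgr2b, Oit3, Gpr182, Pecam1, Kdr and Cdh5, were given as a list of names, and all 10 were found among the 21755 genes of the p16-3MR table. In WT livers 6 of the 10 could be identified among 12643 labels, because 9 lower-case letters had been lost from every label there. Lyve1, Fcgr2b, Oit3, Gpr182, Pecam1 and Cdh5 each fitted 1 gene symbol. The labels of Stab1 and Stab2 fitted 3 symbols each, that of Clec4g fitted 7 and that of Kdr fitted 2, so these 4 genes were not used in WT.

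Liver sinusoids are lined by a thin endothelium with open pores and no organised basement membrane. Its cells clear waste from the blood by endocytosis, through scavenger, lectin and Fc receptors that most other endothelial beds lack. They also carry the general endothelial machinery, such as junction proteins and receptors for vascular endothelial growth factor (VEGF). Loss of the scavenging and porous phenotype in ageing and in fibrosis is usually called capillarization.

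The p16-3MR mice carry an artificial chromosome in which the promoter of the senescence gene p16Ink4a drives the 3MR cassette. Its viral thymidine kinase turns ganciclovir (GCV) into a toxic product in cells that express p16. GCV or vehicle (VEH, water at high pH) was injected on 5 consecutive days each month. The labels give the GCV dose as 150 mg/kg and the study's methods give a lower one, so the dose is uncertain. The p16-3MR mice entered treatment at 16 to 18 months of age, and VEH-treated p16-3MR mice carry the transgene too. WT mice entered at 6 months and their livers were taken after 3 months. In each genotype, females and males under GCV and under VEH made 4 groups of 3 livers. Batch 1 held all p16-3MR livers and batch 2 all WT livers. Genotype, age, length of treatment and batch therefore cannot be told apart, and no test between genotypes was made. Livers are called here by the numbers in their labels.

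Where the genes lie, and the bases just before them, are given for genome build GRCm38 (mm10), with gene models from GENCODE M21. Promoter sequences came from RefSeq's table for GRCm38.p6, which held 5 of the 10 genes, Fcgr2b, Kdr, Clec4g, Stab2 and Stab1. The whole Fcgr2b window and part of the Stab2 window lie inside the annotated gene, and neither is printed. Kdr, Clec4g and Stab1 are printed and stand for the 3 patterns described below: Kdr separated the GCV and VEH females, Clec4g was at its lowest in the livers richest in macrophage transcripts, and Stab1 did neither. Each sequence runs 5′ to 3′ on the coding (minus) strand and ends at the base before the outermost annotated start. Capitals mark AGGAAG or, where it lies on the other strand, CTTCCT, a 6-base word holding the core bound by ETS factors, a family used widely by endothelial genes.
Kdr, chr5:75978459-75978705: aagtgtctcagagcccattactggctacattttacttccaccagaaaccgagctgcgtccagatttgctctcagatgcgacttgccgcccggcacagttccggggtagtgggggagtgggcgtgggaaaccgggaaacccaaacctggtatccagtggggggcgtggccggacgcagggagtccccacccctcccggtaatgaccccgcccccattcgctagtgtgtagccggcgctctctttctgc
Clec4g, chr8:3720652-3720901: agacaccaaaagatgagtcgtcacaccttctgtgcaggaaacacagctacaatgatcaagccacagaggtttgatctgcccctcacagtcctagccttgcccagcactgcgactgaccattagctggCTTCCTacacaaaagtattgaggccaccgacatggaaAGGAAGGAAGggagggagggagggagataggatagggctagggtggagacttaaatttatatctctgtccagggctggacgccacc
Stab1, chr14:31168642-31168891: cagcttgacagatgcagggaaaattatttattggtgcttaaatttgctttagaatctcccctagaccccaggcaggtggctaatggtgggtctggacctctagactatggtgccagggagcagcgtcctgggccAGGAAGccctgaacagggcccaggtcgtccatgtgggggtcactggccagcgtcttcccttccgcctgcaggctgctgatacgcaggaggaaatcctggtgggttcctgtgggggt
In the 250 bases before the RefSeq start, AGGAAG occurred on either strand 3 times in Clec4g, 1 time each in Stab1 and Stab2, and was not found in Kdr or Fcgr2b. The Stab2 match lies in the part of its window inside the annotated gene. The 2 matches nearest the start of Clec4g overlap each other. The same word was held by 29.5% of all 32851 mouse promoter windows of that length. AGATAA, a word bound by GATA factors, was held by 9.99% of windows and AACAAT, a word bound by SOX factors, by 9.42%, and none of the 5 genes had either on any strand. The shorter core GGAA does stand in the printed Kdr sequence, so the absence there holds for the 6-base word only. The matches describe the letters in these windows only.

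The members were measured over a background of hepatocyte RNA. Total counts were 5005760 to 7160172 in p16-3MR livers and 3084517 to 5667904 in WT livers, and a floor of 3 counts was 0.293 to 2.32 CPM (counts per 1000000 after TMM scaling) and 0.516 to 0.943 CPM. Intervals and floors of this kind cover counting error only. Among p16-3MR livers, 3 stood apart. In GCV female 33, 64.0% of counts fell on mitochondrially encoded genes, against 12.3 to 22.4% in the other 11 livers, its TMM factor was 0.259, and 13409 genes had a count against at least 16804 in the others. In GCV male 32 and VEH male 24 the summed level of 14 Kupffer cell and macrophage genes was 6930 and 3900 CPM, against 227 to 2010 CPM elsewhere, and that of 9 hepatocyte genes was 38001 and 55110 CPM, against 98071 to 171225 CPM. Values that liver 33, 32 or 24 moved by over 1.5 times are given without it for the genes named below. Of 4 lymphatic genes in p16-3MR livers, Pdpn stood at 0.0 to 1.51 CPM, Mmrn1 reached 11.6 CPM and Prox1, which hepatocytes also express, ranged from 24.5 to 189 CPM.

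**Figure D1:**
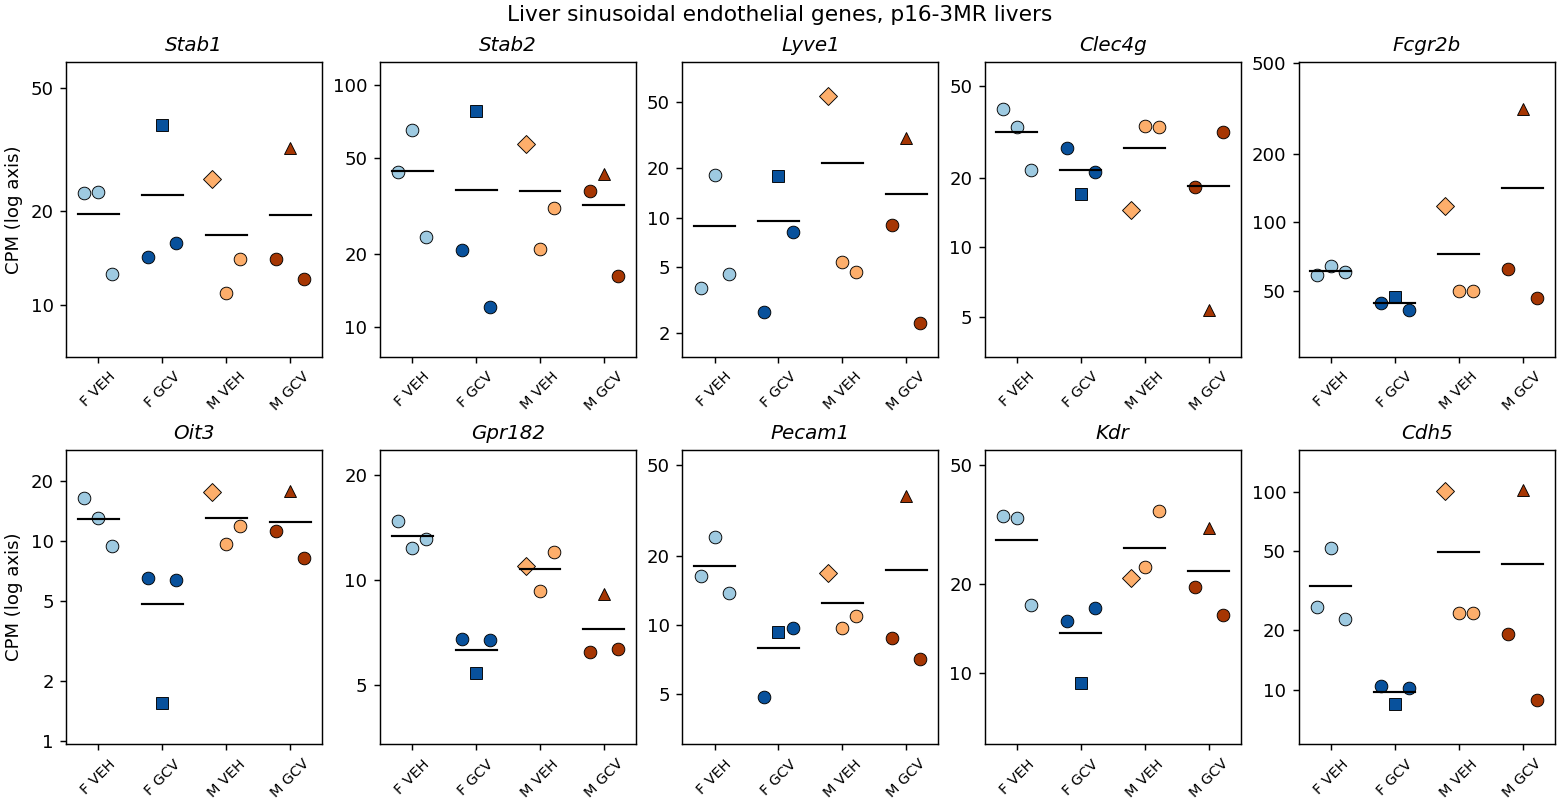
Level of each of the 10 genes in each p16-3MR liver in CPM on a logarithmic axis, by sex and treatment, with a bar at the mean of 3 livers. The square is GCV female 33, the triangle GCV male 32 and the diamond VEH male 24, and for Fcgr2b, Oit3, Gpr182, Pecam1, Kdr and Cdh5 the dark blue points all lie below the light blue points.

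The first comparison asked whether GCV changed the sinusoidal endothelial genes in aged p16-3MR females. In 6 of the 10 genes, Fcgr2b, Oit3, Gpr182, Pecam1, Kdr and Cdh5, every GCV female lay below every VEH female, and in none did every GCV female lie above. Of all 21755 genes 7.35% separated downwards in the same way and 5.91% upwards, and among genes passing the low-count filter of edgeR 9.45% separated downwards. None of the 10 was called at an adjusted p under 0.05 by edgeR, and no gene of the table was called (0% of 21755), while DESeq2 called 86 and limma-voom 7 genes of the table and again none of the 10. At an unadjusted p under 0.05, 4 of the 10 were lower, Gpr182, Oit3, Kdr and Cdh5, beside 2.32% of all genes and 3.23% of those passing the filter (7.37% of all genes in either direction). That count was 2 without VEH female 27, beside 1.87% of all genes, and 2 without VEH female 28, beside 1.53%. Below 0 lay 8 of the 10, beside 49.8% of all genes. The median log2 fold change of the 10 was -0.77 and that of all genes was 0.0. In whole liver, fewer sinusoidal cells and less RNA per cell cannot be told apart.

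The stabilins and Lyve1 did not separate the females. Stab1 (ENSMUSG00000042286, chr14:31139013-31168641, minus strand) encodes stabilin-1, a scavenger receptor of sinusoidal endothelium and of some macrophages. It stood at 14.3, 37.8 and 15.8 CPM in GCV females 31, 33 and 35 and at 22.9, 23.2 and 12.6 CPM in VEH females 27, 28 and 29. Liver 33 was the highest of the 12 livers and the other GCV females lay within the VEH range, so the groups overlapped. The log2 fold change was 0.17 ± 0.50 (SE) and became -0.42 without livers 33, 32 and 24.

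Stab2 (ENSMUSG00000035459, chr10:86841198-87008025, minus strand) encodes stabilin-2, the main hyaluronan clearance receptor of the sinusoid. Its levels were 20.8, 78 and 12.1 CPM in GCV females 31, 33 and 35 and 43.8, 65.4 and 23.7 CPM in VEH females 27, 28 and 29. Livers 31 and 35 lay below all VEH females while liver 33 lay above them all. GCV over VEH gave a log2 fold change of -0.30 ± 0.64 with all livers and -1.49 without liver 33. Without livers 33, 32 and 24 it was -1.47, with an adjusted p of 0.328 from edgeR.

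Lyve1 (ENSMUSG00000030787, chr7:110850607-110863239, minus strand) encodes a hyaluronan receptor of sinusoidal and lymphatic endothelium that some macrophages also carry. Its levels were 2.7, 17.8 and 8.22 CPM in GCV females 31, 33 and 35 and 3.75, 18.2 and 4.53 CPM in VEH females 27, 28 and 29. In each group 1 liver was high, 33 and 28, and the groups overlapped over nearly the whole range. Its log2 fold change of 0.02 ± 1.09 carried the widest error of the 10 genes and became -0.75 without liver 33 and 1.04 without VEH female 28.

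Clec4g (ENSMUSG00000074491, chr8:3707064-3720651, minus strand) encodes LSECtin, a lectin of liver and lymph node sinusoids. Its levels were 27, 17 and 21.1 CPM in GCV females 31, 33 and 35 and 39.7, 33.1 and 21.6 CPM in VEH females 27, 28 and 29. VEH female 29 lay within the GCV range and the other VEH females lay above it. On the log2 scale the difference was -0.52 ± 0.53, with an adjusted p of 0.802 from edgeR, and it was -0.32 without VEH female 27 and -0.77 without VEH female 29.

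Fcgr2b (ENSMUSG00000026656, chr1:170958617-170976547, minus strand) encodes the inhibitory Fc gamma receptor that takes up immune complexes in the sinusoid, and B cells and macrophages carry it too. Its levels were 44.1, 47.1 and 41.1 CPM in GCV females 31, 33 and 35 and 58.6, 64.1 and 60.5 CPM in VEH females 27, 28 and 29. These were the tightest groups of the 10 genes in proportion to their means, at 44.1 ± 3.01 and 61.1 ± 2.8 CPM (SD, n = 3), and they did not overlap. Its log2 fold change came to -0.47 ± 0.61 and its adjusted p from edgeR was 0.832. The fit shares 1 estimate of spread with the males, where Fcgr2b ranged from 46.7 to 315 CPM. Reads of Fcgr2b may be split with its related receptor Fcgr3.

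Oit3 and Gpr182, which both mark sinusoidal endothelium closely, were lower in every GCV female. Oit3 (ENSMUSG00000009654, chr10:59422958-59441778, minus strand) encodes a secreted zona pellucida domain protein. Its levels were 6.55, 1.54 and 6.37 CPM in GCV females 31, 33 and 35, the value in liver 33 resting on 2 counts and so lying under the floor, and 16.4, 13 and 9.44 CPM in VEH females 27, 28 and 29. The groups did not overlap, with or without liver 33. The fitted log2 difference was -1.31 ± 0.48, with an unadjusted p of 0.0163 and an adjusted p of 0.653 from edgeR. Without liver 33 it was -1.06.

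Gpr182 (ENSMUSG00000058396, chr10:127747276-127751732, minus strand) encodes an atypical chemokine receptor. Its levels were 6.75, 5.41 and 6.71 CPM in GCV females 31, 33 and 35 and 14.7, 12.3 and 13.1 CPM in VEH females 27, 28 and 29. Group means were 6.29 ± 0.763 and 13.4 ± 1.25 CPM (SD, n = 3), so the gap was several times the spread within either group. The value in liver 33 rested on only 7 counts. The log2 difference of -1.07 ± 0.33 had the lowest unadjusted p of the 10 genes, 0.00657, and an adjusted p of 0.646 from edgeR. Each liver left out in turn moved it between -1.18 and -0.99.

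Among the members, the general endothelial genes Cdh5, Kdr and Pecam1 separated as well. Cdh5 (ENSMUSG00000031871, chr8:104101625-104144511, plus strand) encodes VE-cadherin, the adhesion protein of endothelial junctions. Its levels were 10.4, 8.5 and 10.2 CPM in GCV females 31, 33 and 35 and 26.1, 51.8 and 22.9 CPM in VEH females 27, 28 and 29. The highest GCV female was below the lowest VEH female by more than the range of the GCV group. Liver 33 held only 11 counts of Cdh5. The fitted change of -1.77 ± 0.80 was the largest of the 10 genes, with an unadjusted p of 0.0434 and an adjusted p of 0.667 from edgeR.

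Kdr (ENSMUSG00000062960, chr5:75932827-75978458, minus strand) encodes VEGF receptor 2. Its levels were 15, 9.27 and 16.6 CPM in GCV females 31, 33 and 35 and 33.6, 33.3 and 17 CPM in VEH females 27, 28 and 29. Liver 33 held only 12 counts of Kdr. VEH female 29 was only just above GCV female 35, so the groups barely separated. This gave a log2 fold change of -1.01 ± 0.40, with an unadjusted p of 0.0235 and an adjusted p of 0.667 from edgeR.

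Pecam1 (ENSMUSG00000020717, chr11:106654217-106750628, minus strand) encodes the junction protein CD31, which platelets and some leukocytes also carry. Its levels were 4.82, 9.27 and 9.73 CPM in GCV females 31, 33 and 35, from 12 to 58 counts a liver, and 16.4, 24.3 and 13.7 CPM in VEH females 27, 28 and 29. No GCV female reached the lowest VEH female. The log2 fold change was -1.21 ± 0.58, with an unadjusted p of 0.0563 and an adjusted p of 0.667 from edgeR.

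Without livers 33, 32 and 24, 7 of the 10 genes were lower at an unadjusted p under 0.05 by edgeR, again with none called after adjustment, and the median log2 fold change was -0.94. In that same fit 5.31% of all genes, and 8.09% of those passing the filter, were lower at an unadjusted p under 0.05, so the share among all genes rose too. Stab2, Fcgr2b and Pecam1 were the genes added, and Cdh5 then had the lowest unadjusted p, 0.000571, with an adjusted p of 0.23. With liver 33 alone left out the median was -0.97, and over all single livers left out it lay between -0.97 and -0.68.

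**Figure D2:**
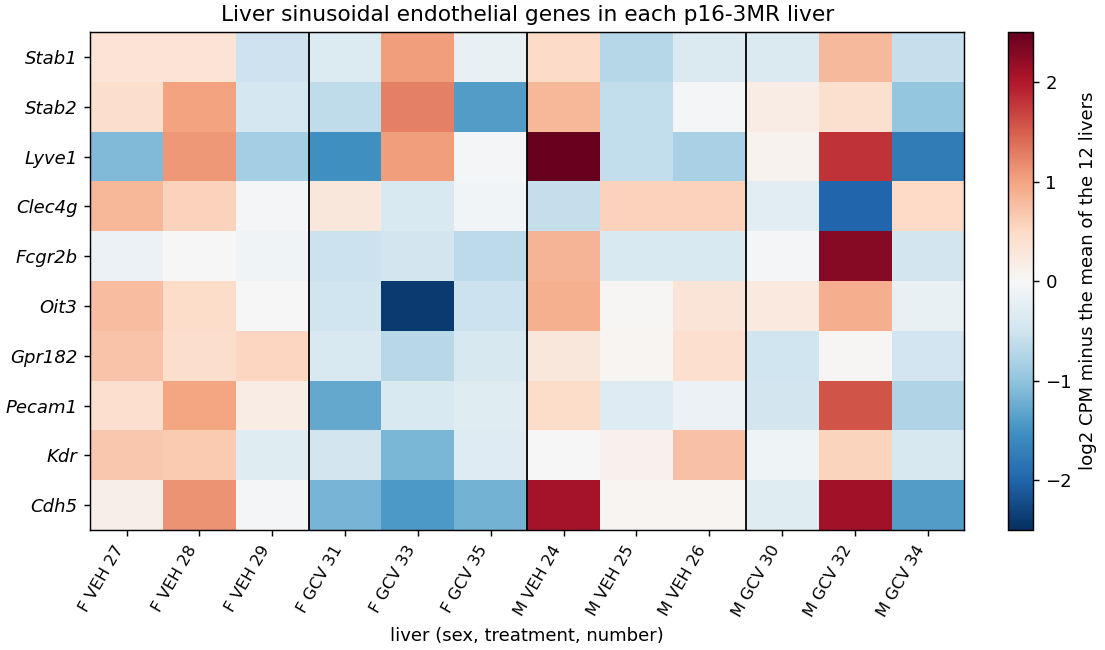
Log2 CPM of each of the 10 genes in each of the 12 p16-3MR livers, minus the gene's mean over the 12, with livers in columns and genes in rows. The 3 GCV females are blue for Oit3, Gpr182, Pecam1, Kdr and Cdh5, and livers M VEH 24 and M GCV 32 are red for Lyve1, Fcgr2b and Cdh5 and blue for Clec4g.

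Other gene lists were read beside these values. In the same females 7.35% of all 21755 genes separated downwards, 5.91% upwards, and 49.8% lay below 0. At an unadjusted p under 0.05 by edgeR 2.32% were lower. In the fit without liver 33, 11366 of the 21755 genes lay below 0. Of 11 further sinusoidal genes, 10 had a log2 fold change below 0 in females, 5 separated downwards and 4 were lower at an unadjusted p under 0.05, with a median of -1.19. Among their 3 most abundant genes, Ehd3, an endocytic membrane protein, stood at 20.6, 2.32 and 24.7 CPM in GCV females 31, 33 and 35 and at 69.6, 54.5 and 33.2 CPM in VEH females 27, 28 and 29, with a log2 fold change of -1.66 ± 0.55. Mrc1, the mannose receptor of sinusoidal endothelium and macrophages, had a log2 fold change of -1.79 ± 0.89, and the transcription factor gene Maf had one of 0.26 ± 0.78. Without liver 33, which had 2.32 CPM of Ehd3 and the most Maf of the females, they were -1.27 for Ehd3, -2.13 for Mrc1 and -0.42 for Maf, and all 11 genes were below 0. None of the 11 was called by edgeR.

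Of 26 pan-endothelial genes, 18 were below 0, 9 separated downwards and none upwards, with a median of -0.46. The endothelial phosphatase gene Ptprb stood at 16, 23.2 and 34.2 CPM in GCV females 31, 33 and 35 and at 81.1, 82.6 and 37 CPM in VEH females 27, 28 and 29, and its log2 fold change was -1.45 ± 0.40. S1pr1, a receptor for sphingosine-1-phosphate, had a log2 fold change of -0.79 ± 0.78 and the co-receptor gene Nrp1 had one of -0.47 ± 0.49. S1pr1 was at 0.772 CPM in liver 33 against 61.5 and 54.8 CPM in the other GCV females, and without that liver they were -0.30 and -0.25, with 22 of the 26 genes below 0 and a median of -0.71. The 9 genes of continuous and large vessels were split, with 5 below 0, 1 separating downwards and a median of -0.03. Of these, Plvap, the diaphragm protein of capillary pores, had a log2 fold change of -1.12 ± 0.64, while Vwf, the von Willebrand factor gene, stood at 1.28 ± 0.79 and the ephrin gene Efnb2 at 0.49 ± 0.53. Without liver 33 these were -0.82, -0.26 and 0.04, and the median of the 9 was -0.60. All 6 genes of endothelial signals around the central vein were below 0 with a median of -0.68, and 1 separated.

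On the ligand side, Vegfa, the main ligand of VEGF receptor 2, stood at 111, 389 and 104 CPM in GCV females 31, 33 and 35 and at 68.2, 67.3 and 62 CPM in VEH females 27, 28 and 29. Every GCV female was above every VEH female, and liver 33 was highest by far. Its log2 fold change of 1.61 ± 0.49 had an unadjusted p of 0.00595 and an adjusted p of 0.646 from edgeR. Without liver 33 it was 0.64, with an unadjusted p of 0.0594 and an adjusted p of 0.842. In males the log2 fold change of Vegfa was 0.02 ± 0.48. Of the 13 genes of VEGF and angiopoietin signalling 3 separated downwards and 2 upwards in females. Of 13 measured genes for ligands and hyaluronan turnover 10 were below 0 and 5 separated downwards, none of them called.

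Markers of other liver cells were read beside the endothelial genes in females. All 14 Kupffer cell and macrophage genes had a log2 fold change below 0, with a median of -1.35, and their summed level was 227 to 641 CPM in GCV females and 576 to 1585 CPM in VEH females. At an unadjusted p under 0.05 by edgeR, 2 of the 14 were lower, beside 2.32% of all genes. Without livers 33, 32 and 24 that count was 9 of the 14, beside 5.31% of all genes, and the median was -1.74. Clec4f, which defines Kupffer cells, had a log2 fold change of -1.45 ± 0.99. Of the 5 B cell genes all were below 0 with a median of -1.87, among them Cd79a, a part of the B cell receptor, at -2.86 ± 0.83, though it stood at 0.386 to 15.2 CPM in females. Without liver 33, 4 of the 5 B cell genes were below 0 and 1 above, with a median of -2.51. Of 5 T and NK cell genes 4 were below 0 with a median of -1.94, and of 4 platelet genes 3 with a median of -1.13 (-3.60 without liver 33). Of 5 cholangiocyte genes 4 were above 0 with a median of 0.96, and Sox9, a factor of bile duct cells, stood at 2.10 ± 0.62 with all livers and 1.2 without liver 33. None of these genes was called by edgeR. The 9 stellate cell genes summed to 296 to 373 CPM in GCV females and 363 to 477 CPM in VEH females. The 9 hepatocyte genes summed to 126191 to 171225 CPM in GCV females and 105517 to 152133 CPM in VEH females. The part of these cells in the endothelial values was not tested.

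**Figure D3:**
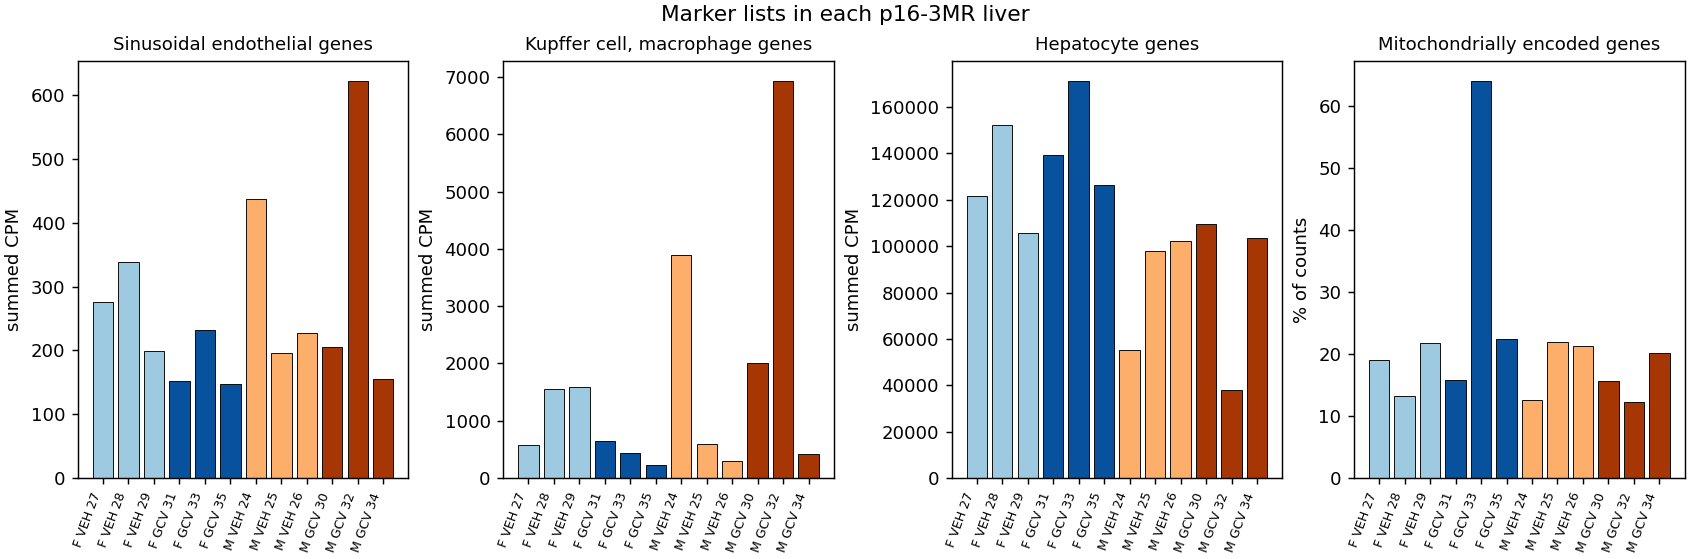
Summed CPM of the 10 sinusoidal endothelial genes, 14 Kupffer cell and macrophage genes and 9 hepatocyte genes, and the share of counts on mitochondrially encoded genes, in each p16-3MR liver (each bar is 1 liver). Livers M GCV 32 and M VEH 24 have the tallest bars for endothelial and macrophage genes and the shortest for hepatocyte genes, and liver F GCV 33 has the tallest for mitochondrial genes.

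The second comparison asked the same question in p16-3MR males. Gpr182 was the single gene of the 10 in which every GCV male lay below every VEH male, beside 2.83% of all genes, and in none did they lie wholly above (3.57%). None of the 10 was called by edgeR, none had an unadjusted p under 0.05 (0.814% of all genes were lower at that level and 1.91% differed in either direction), and no gene of the table was called (0%), against 5 by DESeq2 and 145 by limma-voom. Of the 10, 7 lay below 0, beside 45.5% of all genes. The median log2 fold change of the 10 was -0.20, beside 0.04 for all genes, with a range from -0.63 (Lyve1) to 0.97 (Fcgr2b). That median was -0.56 without liver 32, 0.14 without liver 34 and 0.50 without liver 24.

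Gpr182 stood at 6.2, 9.07 and 6.34 CPM in GCV males 30, 32 and 34 and at 11, 9.29 and 12 CPM in VEH males 24, 25 and 26. The highest GCV male, 32, was just below the lowest VEH male, 25. GCV over VEH gave a log2 fold change of -0.57 ± 0.32, with an unadjusted p of 0.0979 and an adjusted p of 1.0 from edgeR. Without livers 33, 32 and 24 it was -0.77, with an unadjusted p of 0.0414. Of the 11 further sinusoidal genes, 8 had a log2 fold change below 0 in males and 3 separated downwards, with a median of -0.60, and none had an unadjusted p under 0.05. Ehd3, one of these, and the pan-endothelial gene Ptprb also separated in males, with log2 fold changes of -0.71 ± 0.53 and -0.87 ± 0.40. Ptprb was the only 1 of the 26 pan-endothelial genes to separate downwards in males, and 0 separated upwards. Of those 26 genes 16 were above 0 and 10 below, with a median of 0.16.

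In several other members livers 32 and 24 lay far from the other males. Fcgr2b stood at 62.4, 315 and 46.7 CPM in GCV males 30, 32 and 34 and at 117, 49.8 and 49.7 CPM in VEH males 24, 25 and 26. Livers 32 and 24 were the highest of the 12 and the remaining 4 males lay between 46.7 and 62.4 CPM. Its log2 fold change of 0.97 ± 0.61 became -0.46 without liver 32 and 1.54 without liver 24.

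Cdh5 stood at 19, 102 and 8.84 CPM in GCV males 30, 32 and 34 and at 101, 24.5 and 24.4 CPM in VEH males 24, 25 and 26. Livers 32 and 24 were nearly equal and both were far above the other males. On the log2 scale the difference was -0.20 ± 0.75 with all livers, -1.90 without liver 32, 0.87 without liver 24 and -0.79 without livers 33, 32 and 24.

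Lyve1 stood at 9.02, 30.1 and 2.31 CPM in GCV males 30, 32 and 34 and at 54.6, 5.36 and 4.69 CPM in VEH males 24, 25 and 26. Again livers 24 and 32 were the highest of all 12 livers. Its log2 fold change came to -0.63 ± 1.02 and became -1.99 without liver 32 and 1.51 without liver 24.

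Clec4g ran the other way in the same livers. It stood at 18.2, 5.37 and 31.5 CPM in GCV males 30, 32 and 34 and at 14.5, 33.4 and 33.3 CPM in VEH males 24, 25 and 26. Liver 32 was the lowest of all 12 livers and liver 24 the lowest VEH liver of either sex. The fitted log2 difference was -0.57 ± 0.53, with an adjusted p of 1.0 from edgeR, and became -0.15 without liver 32, -0.87 without liver 24 and -1.2 without liver 34.

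Of the remaining 5 genes, Stab1 stood at 14.1, 32.1 and 12.1 CPM in GCV males 30, 32 and 34 and at 25.4, 10.9 and 14.1 CPM in VEH males 24, 25 and 26. Stab2 stood at 36.6, 43 and 16.3 CPM in GCV males and at 57.4, 21.1 and 31.1 CPM in VEH males, in the same order of livers. For both genes the highest male of each treatment was again liver 32 or 24. Oit3 stood at 11.3, 17.9 and 8.26 CPM in GCV males and at 17.6, 9.64 and 11.9 CPM in VEH males. Kdr stood at 19.4, 30.7 and 15.8 CPM in GCV males and at 20.9, 22.7 and 35.2 CPM in VEH males, and liver 24 was the lowest VEH male. Pecam1 stood at 8.74, 36.4 and 7.11 CPM in GCV males and at 16.8, 9.64 and 10.9 CPM in VEH males. All 5 overlapped between treatments.

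In males 13 of the 14 Kupffer cell and macrophage genes had a log2 fold change above 0, with a median of 0.99. Without livers 33, 32 and 24 this was 12 of the 14 with a median of 1.64, and 7 of them were higher at an unadjusted p under 0.05, beside 4.39% of all genes in the same fit. Their summed level was 426 to 6930 CPM in GCV males and 302 to 3900 CPM in VEH males. All 4 platelet genes were above 0 as well, and summed to 308 CPM in liver 32 and 95.1 CPM in liver 24, against 2.55 to 72.0 CPM in the other 10 livers. Both lists were highest in the livers where Fcgr2b, Lyve1 and Cdh5 were highest. Their part in the male values was not tested.

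**Figure D4:**
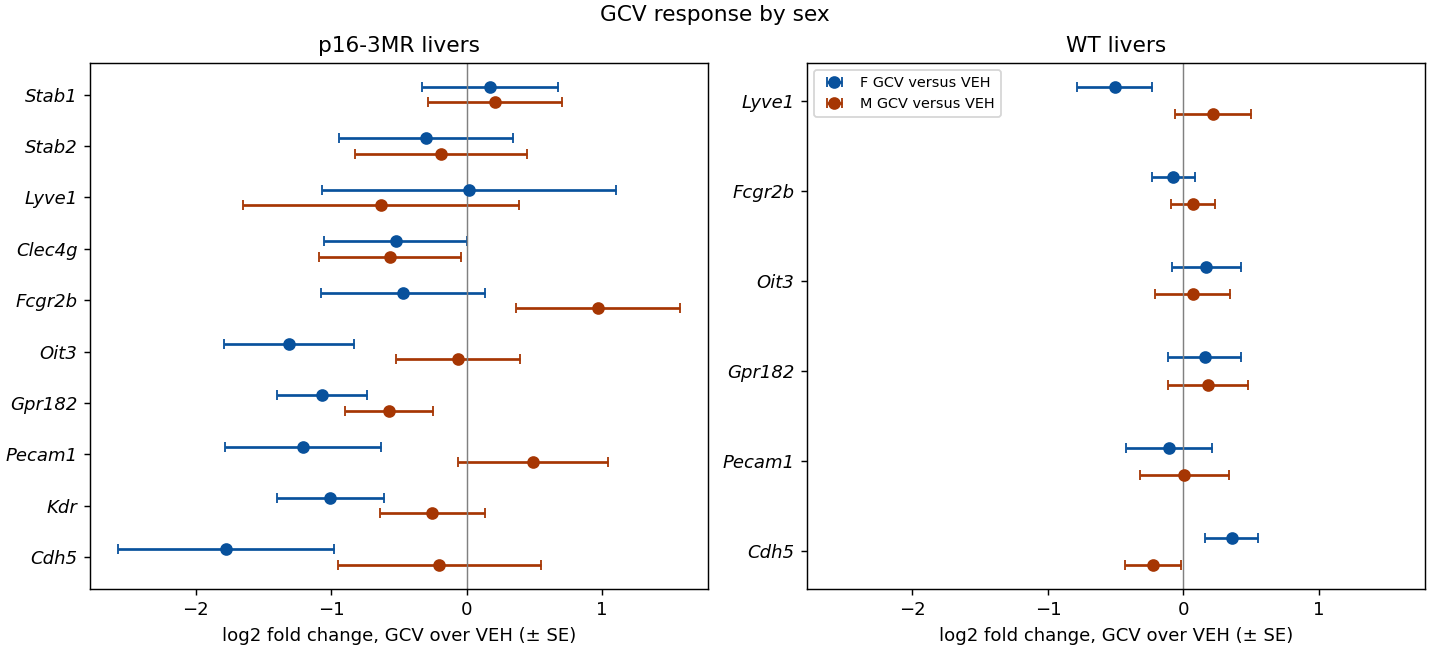
Log2 fold change of GCV over VEH with its standard error from edgeR, in females (blue) and males (brown), for 10 genes in p16-3MR livers and 6 genes in WT livers. In p16-3MR females Oit3, Gpr182, Pecam1, Kdr and Cdh5 lie at -1.01 or lower, and in WT all points lie between -0.51 and 0.36.

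The third comparison tested whether the GCV response differed between p16-3MR females and males. No member and no gene of the table was called by edgeR (0%, with 3.78% at an unadjusted p under 0.05), and DESeq2 called 3 and limma-voom 1 gene of the table but none of the 10. Of the 10 genes, 8 had a lower log2 fold change in females than in males, beside 51.6% of all genes, with a median difference of -0.62 beside -0.04 for all genes, and none had an unadjusted p under 0.05. The median was -0.19 without liver 32 and -1.13 without liver 24, and 4 of the 10 were lower at an unadjusted p under 0.05 without liver 24, beside 6.95% of all genes, and 4 without liver 34, beside 3.57%. The difference was widest for Pecam1, at -1.70 ± 0.80 with an unadjusted p of 0.0529 and an adjusted p of 0.976 from edgeR. It was -1.57 ± 1.09 for Cdh5 and -1.25 ± 0.66 for Oit3. At the other end Lyve1 stood at 0.65 ± 1.48, which became -0.09 without liver 33, 1.94 without liver 32 and -1.55 without liver 24. Without liver 32 the difference for Pecam1 was -0.56 and that for Cdh5 was 0.08, and without liver 24 they were -2.06 and -2.69. Of 14 Kupffer cell and macrophage genes 13 were lower too, with a median of -2.60, or -3.14 without livers 33, 32 and 24. In that fit 13 of the 14 were lower at an unadjusted p under 0.05, beside 1 of the 10 members and 1335 of 21755 genes. All 5 B cell and 5 T and NK cell genes were lower, with medians of -2.34 and -2.55 (-4.08 and -4.98 in that fit). Of 9 hepatocyte genes 5 were above 0. The part of these cells was not tested.

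Females and males were also compared over both treatments. In p16-3MR mice none of the 10 genes was called by edgeR, beside 66 of all genes (0.303%). Fcgr2b and Cdh5 were lower in females at an unadjusted p under 0.05, beside 4.44% of all genes, and 6 of the 10 lay below 0, beside 55.8%. Cdh5 had a log2 fold change of -1.36 ± 0.55 for females over males and an adjusted p of 0.685, and Fcgr2b one of -0.96 ± 0.43. Without liver 32 they were -0.60 and -0.33, and without liver 24 they were -0.88 and -0.73. In VEH-treated livers alone the median log2 fold change of the 10 genes was 0.15 in place of -0.30. Without livers 33, 32 and 24 the median was 0.00, and no gene had an unadjusted p under 0.05. Of 14 Kupffer cell and macrophage genes 13 were lower in females, with a median of -1.82. Without livers 33, 32 and 24 it was 9 of 14, with a median of -0.07. Their part in the difference was not tested.

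**Figure D5:**
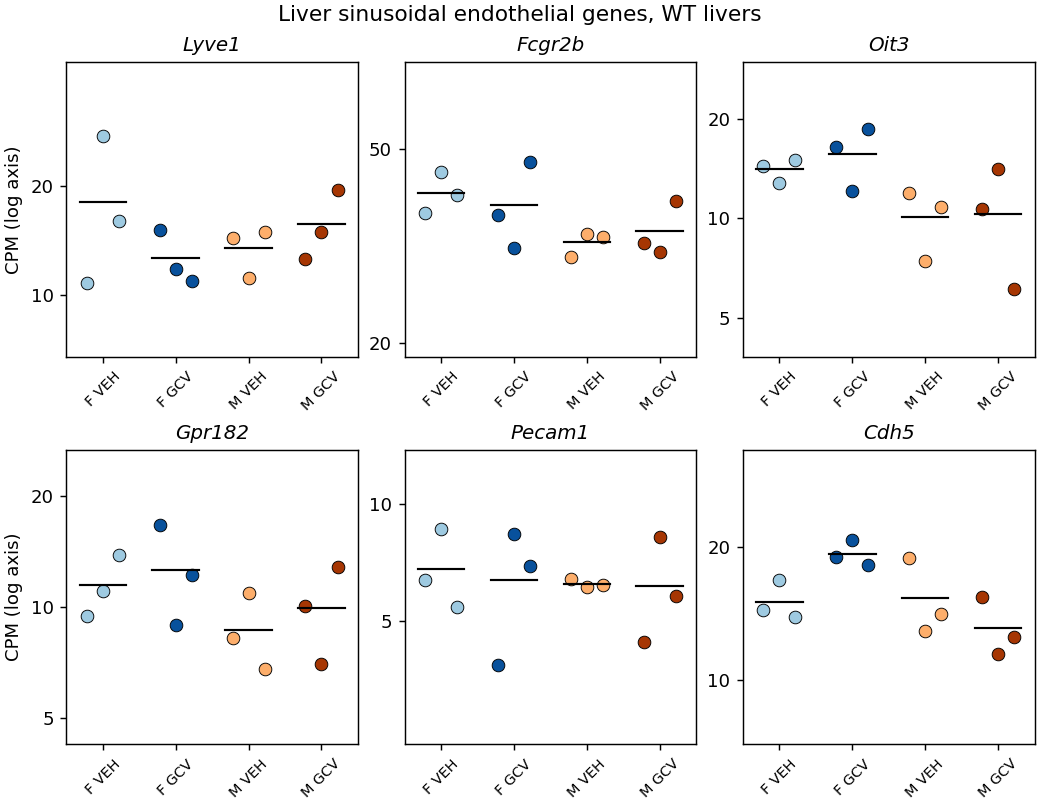
Level of each of the 6 genes identified in WT livers in CPM on a logarithmic axis, by sex and treatment, with a bar at the mean of 3 livers. The spread is smaller than in p16-3MR livers, and Cdh5 is the gene in which the 3 GCV females lie above the 3 VEH females.

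In WT livers, which have no transgene for GCV to act on, GCV made no called difference in any of the 6 genes. The WT values were tighter, with a highest liver 1.56 times (Fcgr2b) to 3.05 times (Oit3) the lowest, against 2.73 times (Gpr182) to 23.7 times (Lyve1) in p16-3MR livers. In females the median log2 fold change of the 6 genes was 0.04, beside 0.0 for all genes, with 3 genes below 0 and 3 above. No gene of the 6 was called or had an unadjusted p under 0.05, beside 0.00791% and 4.56% of all genes by edgeR. DESeq2 called 17 and limma-voom 3 genes of the table, none of them among the 6.

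Cdh5 stood at 19, 20.7 and 18.2 CPM in WT GCV females 4, 5 and 6 and at 14.4, 16.8 and 13.9 CPM in WT VEH females 4, 5 and 6. Every GCV female was above every VEH female, beside 5.05% of all WT genes. This gave a log2 fold change of 0.36 ± 0.20, with an unadjusted p of 0.0838 and an adjusted p of 1.0 from edgeR. In WT males Cdh5 stood at 15.4, 11.5 and 12.5 CPM under GCV and 18.9, 12.9 and 14.1 CPM under VEH in males 1, 2 and 3, with overlapping groups and a log2 fold change of -0.22 ± 0.21 (-0.05 without VEH male 1). Females minus males, the response of Cdh5 came to 0.58 ± 0.29, with an unadjusted p of 0.0558 and an adjusted p of 0.982 from edgeR.

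Lyve1 stood at 15.1, 11.8 and 10.9 CPM in WT GCV females 4, 5 and 6 and at 10.8, 27.4 and 16 CPM in WT VEH females 4, 5 and 6. VEH female 5 was the highest WT liver and VEH female 4 the lowest, so the VEH group spanned the GCV group. The log2 fold change was -0.51 ± 0.28 and -0.07 without VEH female 5. In WT males Lyve1 stood at 12.6, 15 and 19.5 CPM under GCV and 14.4, 11.1 and 14.9 CPM under VEH, with a log2 fold change of 0.22 ± 0.28 (0.04 without GCV male 3). Females minus males, the response of Lyve1 came to -0.73 ± 0.39, or -0.29 without VEH female 5, and did not pass.

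In WT males the median log2 fold change of the 6 genes was 0.07, beside 0.00 for all genes, no gene was called or had an unadjusted p under 0.05 by edgeR (0% and 5.06% of all genes, with 1 gene of the table called by DESeq2), and all 6 overlapped between treatments. Set against each other, the GCV responses of WT females and males differed by a median of -0.07 over the 6 genes. None of the 6 was called or had an unadjusted p under 0.05, beside 0.00791% and 4.45% of all genes.

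WT females and males were then compared over both treatments. With all livers, 6 of the 6 genes had a log2 fold change above 0 for females over males (Cdh5 lay below 0 in VEH livers alone), with a median of 0.27 beside 0.03 for all genes, and 53.5% of all genes were above 0. None of the 6 was called by edgeR, beside 7.94% of all genes, while Oit3 and Fcgr2b were higher in females at an unadjusted p under 0.05, beside 10.4%.

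Oit3 stood at 16.5, 12.1 and 18.6 CPM in WT GCV females 4, 5 and 6 and at 14.4, 12.8 and 15 CPM in VEH females 4, 5 and 6. In males 1, 2 and 3 it stood at 10.7, 14.2 and 6.1 CPM under GCV and at 12, 7.43 and 10.8 CPM under VEH. The lowest female, GCV 5, was within the male range through GCV male 2 alone. Females over males, Oit3 had a log2 fold change of 0.54 ± 0.19, with an unadjusted p of 0.0091 and an adjusted p of 0.0867 from edgeR. Limma-voom gave an adjusted p of 0.0495, and edgeR called the gene when GCV male 2 or VEH male 1 was left out.

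Fcgr2b stood at 36.6, 31.4 and 47 CPM in WT GCV females, 37, 44.9 and 40.2 in VEH females, 32.1, 30.8 and 39.1 in GCV males and 30.1, 33.4 and 33.1 in VEH males, in the order of their numbers. GCV male 3 and GCV female 5 crossed into the range of the other sex. The log2 fold change for females over males was 0.26 ± 0.11, with an adjusted p of 0.194 from edgeR, and 0.17 without GCV female 6. Gpr182 and Cdh5 followed with 0.39 ± 0.20 and 0.27 ± 0.14, the latter being -0.02 in the VEH livers alone. Pecam1 and Lyve1 lay near 0 with 0.07 ± 0.23 and 0.05 ± 0.20, and ran from -0.04 to 0.21 and from -0.17 to 0.19 with single livers left out.

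Gpr182 ranged from 6.77 to 16.7 CPM over the 12 WT livers with a median of 10.5 CPM. Pecam1 ranged from 3.84 to 8.63 CPM with a median of 6.28 CPM, from 14 to 40 counts a liver. For both genes all 4 groups overlapped.

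Among the other lists, which were the same names as in p16-3MR livers, 8 genes were called between the WT sexes by edgeR, beside 7.94% of all genes. They were 2 of 7 identified sinusoidal, 1 of 5 large-vessel and 1 of 8 ligand and hyaluronan genes, 2 of 2 stellate cell and 2 of 3 hepatocyte genes. No gene was called among the 5 pan-endothelial or the 10 Kupffer cell and macrophage genes identified. Bmp2, a sinusoidal signal that sets hepatic iron handling together with Bmp6, stood at 21.0 to 25.6 CPM in 6 females and 11.9 to 19.7 CPM in 6 males. Its log2 fold change was 0.67 ± 0.13 with an adjusted p of 0.00169. Ehd3 had a log2 fold change of 0.37 ± 0.09 and an adjusted p of 0.00822, and Plvap had 0.43 ± 0.12 and 0.0237. These 3 endothelial genes were higher in females. Of the 7 identified sinusoidal genes, the list of Bmp2 and Ehd3, 6 were above 0 and 1 below, with a median of 0.11. Of the 5 large-vessel genes, the list of Plvap, 2 were above 0 and 3 below, with a median of -0.31. The chemokine gene Cxcl9 was called too, with a log2 fold change of 0.72 ± 0.16. It stood at 20.1 to 27.2 CPM in VEH females and 22.7 to 26.1 CPM in GCV females, against 12.5 to 23.99 CPM in VEH males and 8.49 to 12.3 CPM in GCV males, so that the sexes overlapped under VEH.

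The stellate cell genes Lrat, which esterifies retinol for storage, and Dcn, the proteoglycan decorin, were also higher in WT females, by 0.48 ± 0.12 and 0.29 ± 0.08 on the log2 scale. They are the only 2 of 9 stellate genes that could be identified in the WT table. Of the hepatocyte genes Trf, transferrin, was higher in females by 0.20 ± 0.06 and Serpina1c lower, at -0.72 ± 0.07. Kupffer cell and macrophage genes summed to 365 to 533 CPM in WT females and 302 to 451 CPM in WT males, with none of 10 called. The part of any of these in the sex difference of the 6 members was not tested.

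Levels of the members across livers, 10 genes in p16-3MR and 6 in WT, were last set against all other genes. The genes most like them were sought by Spearman's rho over 12 livers with the mean z-score of the members, among 5486 genes with at least 20 counts on average in both tables, and ranked by the lower rho of both tables. They were Sash1 (rho 0.85 in p16-3MR and 0.92 in WT), Scaf8 (0.84 and 0.87), Lrat (0.87 and 0.81), Trim30a (0.80 and 0.95) and Fam129b (0.80 and 0.79). All points of a table share library preparation and scaling, and the values are a description of these livers.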

How the data were processed

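Liver RNA was sequenced from the 3′ ends of transcripts (Smart-3SEQ) in 24 mice. The authors trimmed reads with Trim Galore 0.6.10, checked them with FastQC 0.11.9, quantified them with Salmon 1.10.3 on mm10 (versions from the submitters' processing notes) and deposited whole-number estimated counts for each gene, after leaving out genes with few reads. Whether counting used strand is not given in the sources used here, so genes overlapping on the other strand (for Stab1, Stab2, Clec4g, Fcgr2b and Gpr182) cannot be told apart from the members.

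Each table was fitted whole with edgeR 4.0.16 (R 4.3.3, TMM scaling, quasi-likelihood test, 4 group means over 12 livers), and p-values were adjusted by Benjamini-Hochberg over all its genes and called under 0.05. Errors of log2 fold changes are standard errors. Tests are two-sided. Levels are TMM-scaled CPM with no pseudocount, and likeness used log2 CPM with a prior count of 2. Nothing in the labels says that livers were pooled, so each is taken as 1 mouse. Alternatives used DESeq2 1.42.0, limma 3.58.1 (voom with sample weights), other scaling, filterByExpr, subsets of livers and each liver left out. The scripts were tested on simulated data. Tables were drawn up with Python 3.11.15, and figures with matplotlib 3.10.9.

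In each table the named genes were all members, the called genes of 14 other lists or, where a list had none called, its 3 most abundant genes, and the 5 genes most like the members. Only some of those 3 are given values here. Members and lists were chosen with earlier results of these data known. Depth was 3084517 to 7160172 counts a liver. With 3 livers against 3 an exact permutation test cannot go below 0.10, so none was used.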

Additional observations from a re-analysis of the deposited data

How the results depend on the processing

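No member was called in any comparison under any alternative, apart from Oit3 between WT females and males, called by limma-voom (1 member of 6) and when GCV male 2 or VEH male 1 was left out (0 to 1 member over all livers left out). Of 501 single-gene values under alternatives, 465 kept their direction and side of the threshold, 3 passed it newly and 33 changed sign. These covered all members in p16-3MR females and between WT sexes, but only some members in the other comparisons. Outside them, without livers 33, 32 and 24, Pecam1 changed from 0.49 to -0.37 and Stab2 from -0.19 to 0.03 in p16-3MR males. Between p16-3MR sexes that fit moved Pecam1 from -0.31 to 0.34, Lyve1 from -0.97 to 0.35 and Clec4g from 0.24 to -0.07. In p16-3MR females Stab1 changed to -0.27 by limma-voom and -0.42 without livers 33, 32 and 24, an alternative chosen after seeing the data, as were the other lists without liver 33. Lyve1 there became -0.61 by limma-voom, -0.05 without mitochondrially encoded genes, -0.01 in the 6 livers alone and -0.70 without the 3 livers. In males Lyve1 became 0.32 and 0.21, and for the response difference -0.93 and -0.91, by limma-voom and without the 3 livers. Cdh5 between WT sexes was -0.02 in VEH livers.

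With single livers left out, values in p16-3MR females ran from -0.44 to 0.42 for Stab1, -1.49 to 0.13 for Stab2 and -0.75 to 1.04 for Lyve1. In p16-3MR males they ran from -0.46 to 1.54 for Fcgr2b, -1.99 to 1.51 for Lyve1 and -1.90 to 0.87 for Cdh5, and for the response difference from -2.69 to 0.08 for Cdh5 and -1.55 to 1.94 for Lyve1. Between WT sexes they ran from -0.04 to 0.21 for Pecam1 and -0.17 to 0.19 for Lyve1. The members' median in p16-3MR males was -0.56 without liver 32 and 0.50 without liver 24. The cause of these shifts was not tested.

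Counts of all genes called moved more. In p16-3MR females they were 86 by DESeq2, 7 by limma-voom, 3 in the 6 livers alone and 4 without the 3 livers, against 0. In p16-3MR males they were 5 by DESeq2, 145 by limma-voom and 5 without the 3 livers, and 0 to 1 with single livers left out. For the response difference they were 3, 1 and 2 in the same order. Between p16-3MR sexes they were 200, 215 and 178, and 26 in VEH livers, against 66. In WT females they were 17 by DESeq2, 0 with filterByExpr, 3 by limma-voom, 44 in the 6 livers alone and 0 to 12 with single livers left out, against 1. In WT males they were 1 by DESeq2 and 0 to 46 with single livers left out. For the WT response difference they were 0 with filterByExpr and 0 to 17 with single livers left out, and between WT sexes 483 in VEH livers against 1004.

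WT groups share replicate numbers. Deviations of same-numbered livers had correlations of -0.057 to 0.002 in females and -0.066 to 0.283 in males. Those of differently numbered livers had -0.045 to 0.085 and -0.349 to 0.170. In males the means were 0.138 and -0.070, so these few pairs do not settle whether males were paired. With the replicate block 106 genes were called in females, 68 in males and 79 for the response difference, and no member. For p16-3MR livers no paired analysis was possible because their groups share no numbers.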

Other observations

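Clec4g and Cdh5, chosen after their values were seen, can be set against each other within a liver, where library scaling cancels. The ratio of their counts was 2.59, 2.00 and 2.07 in p16-3MR GCV females 31, 33 and 35 and 1.52, 0.640 and 0.945 in VEH females 27, 28 and 29. These groups did not overlap, but Cdh5 alone already separated them, and the share of other gene pairs that separate was not computed. In liver 33 the ratio rested on 22 counts of Clec4g and 11 of Cdh5. In males it was 0.956, 0.0526 and 3.57 in GCV males 30, 32 and 34 and 0.143, 1.36 and 1.37 in VEH males 24, 25 and 26. Livers 32 and 24 were the lowest of the 12. The ratio was not tested.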
